A study of Rattus norvegicus with 12 samples.

Results

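Platelet-derived growth factor (PDGF) signalling was described through its 6 genes, the 4 ligand genes Pdgfa, Pdgfb, Pdgfc and Pdgfd and the 2 receptor genes Pdgfra and Pdgfrb. They were taken by name from a list, and that list was chosen with earlier results of these data known. All 6 were found among the 14506 named genes of the array, with 1 probe set each. The samples were differentiated vascular smooth muscle cells of the aorta of Sprague-Dawley rats, grown in serum, deprived of it for 48 h and then exposed to 100 nM angiotensin II (Ang II), the vessel-constricting peptide hormone. Untreated cells (the control) and cells exposed for 6 h, 12 h or 24 h were each measured on 3 arrays. All groups, the control included, had passed through serum deprivation. The treatment protocol names exposures of 1, 3 or 24 h, whereas titles and design text name 6, 12 and 24 h, which were used. The labels call the arrays biological replicates without naming an animal or culture, and the p-values reflect only how far arrays of a group differ, which may be technical. No array was labelled as untreated cells held in culture for the later times, and Ang II and time in culture cannot be told apart.

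PDGFs are dimeric growth factors that drive migration and proliferation of smooth muscle cells. PDGF-A and PDGF-B are the classical ligands, cut by furin-like proteases inside the cell, whereas PDGF-C and PDGF-D are secreted in a latent form with a CUB domain that extracellular proteases must remove. PDGF-AA and PDGF-CC act mainly on the alpha receptor, PDGF-DD on the beta receptor, and PDGF-BB on both. The receptors are tyrosine kinases of class III, and the beta receptor is the one long known on vascular smooth muscle and pericytes.

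The labelled cell type was set against marker lists by counting, in each group, the markers above the group's median gene level, a rough guide because probe sets do not share one scale. The count was 11 of 11 for smooth muscle markers in every group, 7 or 8 of 11 for fibroblast markers and 5 of 9 for pericyte markers. It was 1 or 2 of 11 for endothelial markers, and 0 or 1 of 11 for leukocyte and macrophage markers, where Cd14 was above the median in all groups but 24 h. Between arrays the correlation across genes, which are not independent replicates, was 0.9975 to 0.9984 within groups and 0.9868 to 0.9941 between groups. With 3 arrays a group, a log2 difference had a median standard error of 0.0667 over all genes. Agtr1a, which encodes the receptor for Ang II, had log2 changes of -2.57 ± 0.06 (SE) at 6 h, -1.85 ± 0.06 at 12 h and -1.20 ± 0.06 at 24 h.

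At 6 h the PDGF genes split by ligand class and by receptor. At 12 h and 24 h Pdgfb no longer differed from control at the threshold. The 2 classical ligand genes rose about equally at 6 h, Pdgfa by 1.98-fold and Pdgfb by 2.01-fold, while the 2 latent ligand genes fell, Pdgfc by 1.95-fold and Pdgfd by 2.25-fold. Pdgfra fell by 2.62-fold at 6 h and was still 2.22-fold lower at 24 h, whereas Pdgfrb fell by no more than 1.17-fold at any time. The limma F test over the 4 groups passed for 6 of 6 members, against 51.5% of all genes. At 6 h 5 of 6 members passed against control, 2 higher and 3 lower, where 35.8% of genes passed in all (18.6% higher and 17.2% lower). The count at 12 h was again 5 of 6, with 1 higher and 4 lower, against 26.6% of genes (13.3% in each direction). At 24 h 1 member was higher and 4 were lower, against 30.0% of genes (15.3% higher and 14.7% lower). The median size of the members' log2 changes, without sign, was 1.00 at 6 h, 0.64 at 12 h and 0.35 at 24 h, beside 0.12, 0.10 and 0.13 over all genes. The 3 comparisons share their control arrays. In bulk RNA, fewer cells of a type and less RNA per cell cannot be told apart.

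**Figure D1:**
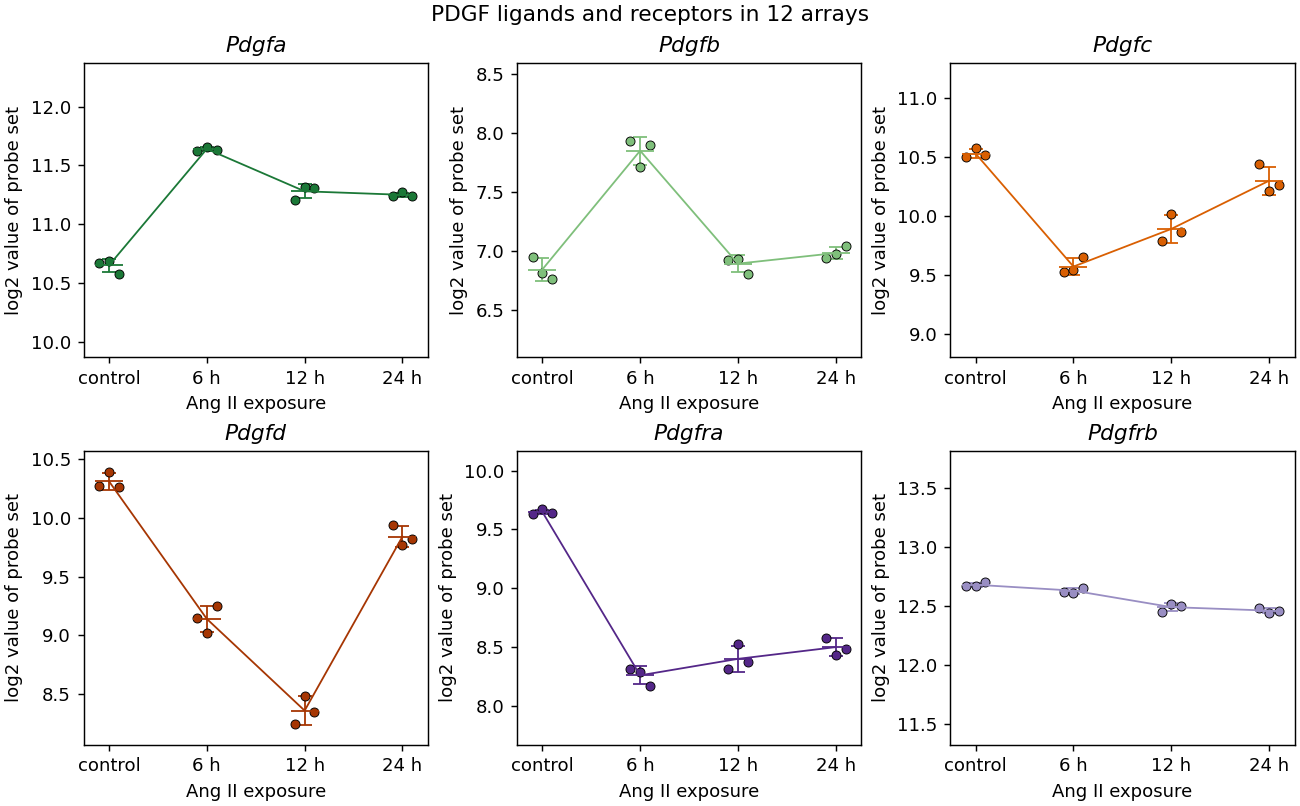
Deposited log2 values of the 6 PDGF genes on the 12 arrays, in panels of equal height (2.5 log2 units), with points for arrays and bars for mean ± SD (n = 3); the exposures are spaced evenly, not to scale. Pdgfa and Pdgfb peaked at 6 h, Pdgfd was lowest at 12 h (8.25 to 8.48), Pdgfra stayed at or below 8.58 after Ang II, and Pdgfrb moved least.

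Pdgfa, the gene of the A chain, had log2 values of 10.67, 10.69 and 10.58 on the control arrays and of 11.62, 11.66 and 11.63 at 6 h. At 12 h the values were 11.21, 11.32 and 11.31, and at 24 h they were 11.24, 11.27 and 11.24. Every Ang II array lay above every control array, and the 6 h arrays lay above all others. The change against control was 0.99 ± 0.04 at 6 h (SE, n = 3 per group, limma adjusted p = 9.98e-09), 0.63 ± 0.04 at 12 h (adjusted p = 7.19e-07) and 0.60 ± 0.04 at 24 h (adjusted p = 1.25e-06). From 6 h to 12 h the level fell by 0.36 (adjusted p = 0.000101), leaving it 1.55-fold above control. From 12 h to 24 h it did not pass (-0.03, 95% interval -0.13 to 0.07, adjusted p = 0.65). Pdgfa was thus the only one of the 4 ligand genes whose difference from control passed as higher at all 3 times, and only 162 of the 14506 genes had a larger positive change at 6 h.

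Pdgfb, the gene of the B chain, gave 6.95, 6.81 and 6.76 in control and 7.93, 7.71 and 7.90 at 6 h. It then read 6.92, 6.93 and 6.80 at 12 h and 6.94, 6.97 and 7.04 at 24 h. The 6 h arrays stood apart, and both later groups overlapped with control. The rise at 6 h was 1.01 ± 0.07 (SE, limma adjusted p = 3.67e-07), and the fall from 6 h to 12 h was nearly as large at -0.96 ± 0.07 (adjusted p = 1.79e-06). The differences from control at 12 h (0.05, 95% interval -0.11 to 0.20, adjusted p = 0.706) and at 24 h (0.14, interval -0.01 to 0.29, adjusted p = 0.155) did not pass. Neither did the step between these times (0.09, adjusted p = 0.344). For Pdgfb at 24 h against 6 h the difference was -0.86 ± 0.07 (adjusted p = 1.47e-06).

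The 2 classical ligand genes therefore had log2 changes of like size at 6 h and differed later. Of all genes, 39.0% had a lower mean level than Pdgfb and 91.6% a lower one than Pdgfa. With Pdgfb that low, log2 changes of like size need not mean equal responses. The difference Pdgfa minus Pdgfb within an array was 3.72 to 3.88 in control and 3.69 to 3.95 at 6 h, which overlap (exact permutation test, two-sided, p = 0.9). It was 4.29 to 4.50 at 12 h and 4.21 to 4.30 at 24 h, higher than on any control array by a mean of 0.59 and 0.46. In both cases the exact permutation test gave p = 0.1, the smallest that 3 arrays against 3 allow (adjusted p = 0.113 over the 9 such tests). A difference within an array shows unequal change only, since levels of different probe sets are not on one scale.

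The promoter windows of both genes are shown because the genes moved together at 6 h. Each is the 250 bases before the start of a RefSeq transcript (GRCr8), on the gene's strand and 5′ to 3′, with motif matches in capitals. Only the first window listed for a gene was used, and any other start was not searched. The windows are chr12:20759116-20759365 (plus strand) for Pdgfa and chr7:113438344-113438593 (minus strand) for Pdgfb.

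Pdgfa: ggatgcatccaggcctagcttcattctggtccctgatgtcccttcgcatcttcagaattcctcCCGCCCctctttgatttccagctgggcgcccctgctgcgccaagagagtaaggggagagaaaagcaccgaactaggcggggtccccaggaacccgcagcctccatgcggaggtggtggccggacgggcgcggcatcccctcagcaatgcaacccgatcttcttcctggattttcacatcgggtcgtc

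Pdgfb: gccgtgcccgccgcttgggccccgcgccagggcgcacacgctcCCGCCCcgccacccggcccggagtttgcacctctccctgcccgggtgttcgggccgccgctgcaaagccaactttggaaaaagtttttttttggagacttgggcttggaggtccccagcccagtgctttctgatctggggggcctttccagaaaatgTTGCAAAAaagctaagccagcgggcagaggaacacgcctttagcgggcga

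Searched on both strands were the EGR site (GCGNGGGCG), the GC box bound by Sp1 (GGGCGG), the AP-1 site (TGANTCA), the C/EBP site (TTGCNNAA), the TATA box (TATAAA) and the CArG box of serum response factor. The EGR and GC box letters can overlap. Of 33469 windows of this length in the RefSeq table, 4.29% held an EGR match, 30.5% a GC box, 6.34% an AP-1 site, 9.22% a C/EBP site, 12.9% a TATA box and 1.5% a CArG box. The Pdgfa window held 1 GC box, read as CCGCCC from base -187 to base -182 before the start. The Pdgfb window held 1 GC box (-207 to -202) and 1 C/EBP match (-50 to -43). The GC content was 60.8% for Pdgfa and 63.6% for Pdgfb, beside a median of 51.2% over all windows. A match is a run of letters and not a measured binding site.

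Pdgfc, a latent ligand gene, had control values of 10.50, 10.58 and 10.52, which dropped to 9.52, 9.54 and 9.65 at 6 h. The level was 9.79, 10.02 and 9.86 at 12 h and 10.44, 10.21 and 10.26 at 24 h. The 4 groups did not overlap and were ordered from control through 24 h and 12 h down to 6 h. The log2 change against control was -0.96 ± 0.07 at 6 h (SE, limma adjusted p = 7.44e-07) and -0.64 ± 0.07 at 12 h (adjusted p = 3.87e-05). The return was stepwise, with 0.32 ± 0.07 from 6 h to 12 h (adjusted p = 0.00572) and 0.41 ± 0.07 from 12 h to 24 h (adjusted p = 0.00135). The remaining difference at 24 h was small, -0.23 ± 0.07 (adjusted p = 0.0332). That call was lost when control replicate 1, 2 or 3 or Ang II 24 h replicate 2 or 3 was left out (adjusted p = 0.0599, 0.103, 0.0691, 0.122 and 0.0956), and when all rows of the value table were tested (adjusted p = 0.0525). Over the alternatives its adjusted p ranged from 0.00319 to 0.122.

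Pdgfd, the other latent ligand gene, had the deepest fall of the 6 members. Its log2 values were 10.27, 10.39 and 10.26 in control, 9.15, 9.02 and 9.25 at 6 h, 8.25, 8.48 and 8.35 at 12 h, and 9.94, 9.77 and 9.82 at 24 h. No 2 groups overlapped. The change at 6 h was -1.17 ± 0.08 (SE, limma adjusted p = 2.13e-07). At 12 h the level was 3.86-fold below control (-1.95 ± 0.08, 95% interval -2.12 to -1.78), and only 14 of the 14506 genes fell further. Pdgfd fell by a further 0.78 between 6 h and 12 h (adjusted p = 1.59e-05) while Pdgfc recovered. Between 12 h and 24 h it then rose by 1.49 ± 0.08, or 2.80-fold (adjusted p = 1.52e-07), and ended 1.38-fold below control (-0.46 ± 0.08, adjusted p = 0.000651).

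The unequal course of the latent ligand genes showed within each array. Pdgfc minus Pdgfd was 0.23, 0.19 and 0.25 in control and 0.37, 0.51 and 0.40 at 6 h. It was 1.54, 1.54 and 1.52 at 12 h, with an SD of 0.014, and 0.50, 0.44 and 0.43 at 24 h. All Ang II arrays lay above all control arrays, by a mean of 0.21, 1.31 and 0.23 at the 3 times. Each comparison gave the smallest possible p of 0.1 (exact permutation test, two-sided, adjusted p = 0.113).

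**Figure D2:**
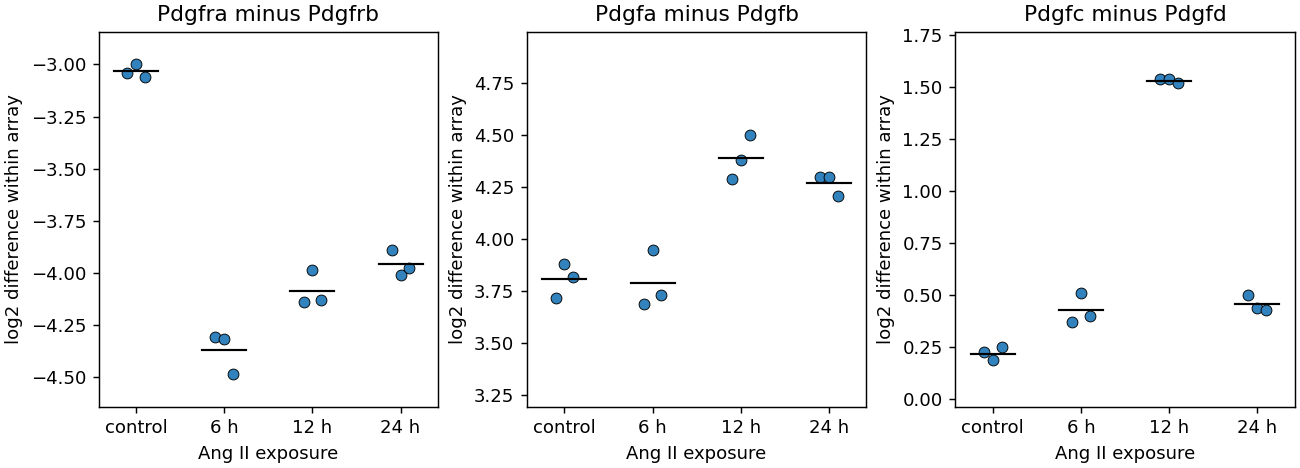
Difference of 2 log2 values within an array, for the receptor genes, the classical ligand genes and the latent ligand genes, by group; points are arrays, lines are means (n = 3), and each panel spans 1.8 log2 units. Pdgfc minus Pdgfd peaked at 12 h (1.52 to 1.54), and Pdgfra minus Pdgfrb was below every control array at all 3 times.

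The Pdgfd window is printed because this gene moved most. It lies at chr8:11773258-11773507 on the plus strand and partly within the gene's annotated span in the same build.

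Pdgfd: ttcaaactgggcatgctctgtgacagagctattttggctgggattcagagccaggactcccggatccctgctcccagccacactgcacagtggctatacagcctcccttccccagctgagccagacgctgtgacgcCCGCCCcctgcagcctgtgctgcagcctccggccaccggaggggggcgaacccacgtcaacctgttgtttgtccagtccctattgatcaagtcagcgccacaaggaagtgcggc

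It held 1 GC box (-114 to -109) and no other match, and its GC content was 61.6%. The Pdgfc window, with a GC content of 56.0% and lying inside the annotated span of its gene, held 0 matches to the 6 motifs in these 250 bases.

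Genes of proteases that activate the latent ligands were measured beside the ligand genes, and Plat and Plau rose while both ligand genes were low at 6 h and 12 h. Plat, the gene of tissue plasminogen activator, which releases active PDGF-CC, read 8.18, 8.40 and 8.46 in control and 11.78, 11.68 and 11.76 at 6 h. It was 11.64, 11.62 and 11.56 at 12 h and 10.46, 10.48 and 10.57 at 24 h, so that all Ang II arrays lay above control. The change in Plat was 2.16 ± 0.07 at 24 h (limma adjusted p = 2.5e-09), when Pdgfc was at -0.23. Plau, the gene of urokinase, which can process PDGF-DD, rose by 1.52 ± 0.08 at 6 h (adjusted p = 2.71e-08) and by 1.02 ± 0.08 at 12 h (adjusted p = 1.37e-06). At 24 h Plau was at -0.20 ± 0.08 (adjusted p = 0.0714). St14, the gene of matriptase, another protease that acts on PDGF-DD, did not pass at any time (-0.09, 0.00 and -0.14). Its group means were low, at 6.79 to 6.93 beside a median gene level of 8.0, where a lack of change says little.

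**Figure D3:**
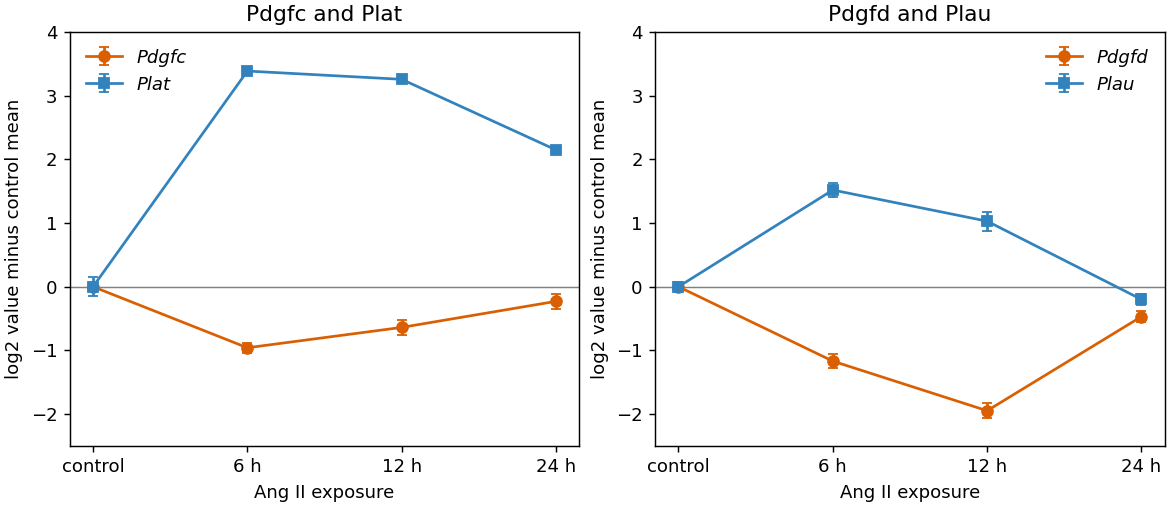
Log2 value minus the control mean for Pdgfc with Plat and for Pdgfd with Plau, by group (mean ± SD, n = 3; exposures evenly spaced). Plat lay 3.39 above control at 6 h and 2.16 at 24 h, while Pdgfc returned from -0.96 to -0.23; Plau and Pdgfd were both near or below control at 24 h.

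Furin, whose product cuts the classical ligands, rose by 0.48 ± 0.04, 0.33 ± 0.04 and 0.24 ± 0.04 at the 3 times. Nrp1, the gene of neuropilin-1, a co-receptor reported to bind PDGFs, was 2.46-fold, 2.01-fold and 1.97-fold lower at the 3 times. Of the 11 measured genes for ligand processing and extracellular binding, 4 rose and 4 fell at 6 h (median -0.09, all genes 0.01), where 35.8% of all genes passed. At 12 h 3 rose and 4 fell (median 0.00, all genes 0.01; 26.6% of all genes passed), and at 24 h 2 rose and 3 fell (median 0.07, all genes 0.05; 30.0% passed).

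Pdgfra, the gene of the alpha receptor, was uniform in control at 9.63, 9.67 and 9.64. It read 8.31, 8.29 and 8.17 at 6 h, 8.31, 8.53 and 8.37 at 12 h, and 8.58, 8.43 and 8.48 at 24 h. All 9 Ang II arrays lay more than 1 log2 unit below the control arrays. The change was -1.39 ± 0.06 at 6 h (SE, limma adjusted p = 1.02e-08), -1.24 ± 0.06 at 12 h (adjusted p = 5.29e-08) and -1.15 ± 0.06 at 24 h (adjusted p = 1.23e-07). Of the 14506 genes, 57, 54 and 61 fell further at these times. The return was slight: 12 h did not differ from 6 h at the threshold (0.15, 95% interval 0.01 to 0.28, adjusted p = 0.115), nor 24 h from 12 h (0.09, interval -0.05 to 0.23, adjusted p = 0.301). The step from 6 h to 24 h did pass (0.24 ± 0.06, adjusted p = 0.0095).

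The Pdgfra window, printed because this gene had the most lasting fall, lies at chr14:33408517-33408766 on the minus strand and partly within the annotated span of the gene.

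Pdgfra: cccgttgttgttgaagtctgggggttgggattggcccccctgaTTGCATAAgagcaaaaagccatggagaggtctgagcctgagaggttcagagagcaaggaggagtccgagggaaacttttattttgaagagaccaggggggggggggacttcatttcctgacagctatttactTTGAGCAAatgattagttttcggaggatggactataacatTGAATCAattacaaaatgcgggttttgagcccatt

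It held 2 C/EBP matches (-207 to -200 and -75 to -68) and no GC box. There was 1 match to the AP-1 letters TGANTCA (-35 to -29), read as TGAATCA, where N stood for any base. With a GC content of 47.2% it was the only window of the 5 members found in the table that lay below the median of all windows.

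Pdgfrb, the gene of the beta receptor, varied little. Its control values were 12.67, 12.67 and 12.70, followed by 12.62, 12.61 and 12.65 at 6 h. The values were 12.45, 12.52 and 12.50 at 12 h and 12.48, 12.44 and 12.46 at 24 h. At 6 h the arrays lay just below those of control, and the difference of -0.05 ± 0.04 did not pass (95% interval -0.14 to 0.03, limma adjusted p = 0.316), although it did after a further quantile normalization (-0.11, adjusted p = 0.0202). Pdgfrb fell by 0.19 at 12 h (adjusted p = 0.00221) and by 0.22 at 24 h (adjusted p = 0.000746), both less than 1.2-fold. Of all genes, 26.3% and 25.1% changed by more at these times. The step from 6 h to 12 h was -0.14 ± 0.04 (adjusted p = 0.0166), a call lost without Ang II 6 h replicate 3 (adjusted p = 0.0673), without 12 h replicate 1 (0.0612) or with only these 2 groups in the fit (0.0636). The step from 12 h to 24 h did not pass (-0.03, adjusted p = 0.577).

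The receptor genes changed unequally. Pdgfra minus Pdgfrb within an array was -3.04, -3.00 and -3.06 in control and -4.31, -4.32 and -4.49 at 6 h. It was -4.14, -3.99 and -4.13 at 12 h and -3.89, -4.01 and -3.98 at 24 h. The mean shift was -1.33, -1.05 and -0.93, beyond the pooled SD of 0.074, 0.062 and 0.048. All 3 comparisons gave p = 0.1, the smallest possible (exact permutation test, two-sided, adjusted p = 0.113).

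**Figure D4:**
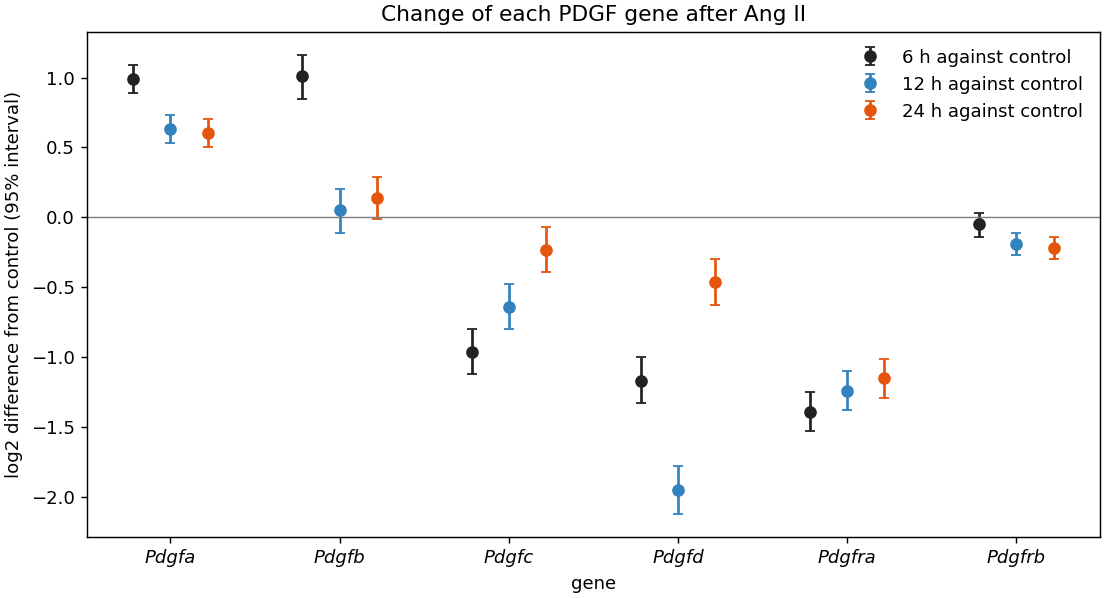
Log2 difference from control of each PDGF gene at 6, 12 and 24 h (points) with 95% intervals from limma (3 arrays against 3). Intervals exclude 0 at all times for Pdgfa, Pdgfc, Pdgfd and Pdgfra, at 6 h only for Pdgfb, and at 12 and 24 h for Pdgfrb.

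Pdgfra also serves as a marker of fibroblasts, and the other fibroblast markers moved in both directions. Of 11 such markers without Pdgfra, 1 rose and 3 fell at 6 h, 1 rose and 3 fell at 12 h, and 2 rose and 4 fell at 24 h. Of all genes 35.8%, 26.6% and 30.0% passed at these times. The share of markers that passed was near that of all genes at 6 h and above it at 12 h and 24 h. Lum had -0.46, -0.56 and -0.76 and Dcn -0.40, -0.39 and -0.74 at the 3 times, while Postn rose by 0.73, 0.71 and 1.01. The log2 of the summed level of the 11 markers was 15.16 to 15.17 in control and 15.23 to 15.25, 15.18 to 15.21 and 15.21 to 15.22 after Ang II. The sum was taken over unlogged values and rests mostly on its highest markers. These were Col1a1 (13.31 in control), Col1a2 (13.15), Thy1 (12.92) and Postn (12.08, and 13.09 at 24 h). A level sum is therefore no measure of fibroblast number. Whether fibroblasts had a part in the fall of Pdgfra was not tested. The arrays have no true zero, so that no marker can be called absent.

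Between times, 5 of 6 members passed from 6 h to 12 h (27.0% of all genes), 2 of 6 from 12 h to 24 h (27.5%), and 6 of 6 from 6 h to 24 h (39.2%). The 2 that passed in the later step were the latent ligand genes, both higher at 24 h.

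Genes whose 4 group means, each centred on its own mean, lay nearest to a member were listed among the other 7464 genes that passed the F test, by the root mean square difference in log2 units. Nearest to Pdgfa were Hsph1 (0.039), Osmr (0.060) and Atp8b1 (0.073). For Pdgfb these were Fam110c (0.033), Cd46 (0.082) and the MAP kinase phosphatase gene Dusp7 (0.083). Pdgfc had close neighbours in Zfpm2 (0.022), Nfia (0.023) and Alg8 (0.027). Pdgfd was followed at a greater distance by Map2 (0.14), Npr3 (0.28) and Celf2 (0.29). Of these, Map2 changed by -1.17, -1.92 and -0.77. Nearest to Pdgfra were Arhgap20 (0.036) and the receptor tyrosine kinase genes Epha3 (0.066) and Alk (0.071). For Pdgfrb, whose range was small, they were Selenow (0.0074), Cct5 (0.0099) and Cyria (0.011). Among the members themselves the nearest were Pdgfa and Pdgfb (0.27) and Pdgfc and Pdgfra (0.33), and the farthest Pdgfa and Pdgfd (1.00). The 2 latent ligand genes Pdgfc and Pdgfd lay 0.51 apart, farther than Pdgfc from Pdgfrb (0.37). The measure is a description of 12 arrays in 4 groups.

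Genes listed for restraint of PDGF receptors, such as those of tyrosine phosphatases and ubiquitin ligases, were mostly higher at 6 h. Of 12 measured, 9 rose and 1 fell (median 0.41, all genes 0.01), where 18.6% of all genes were called higher and 17.2% lower. Whether the product of each listed gene restrains PDGF receptors was not tested. Sh2b3, an adaptor that dampens receptor signalling, rose by 1.16 ± 0.05 (2.23-fold), and Ptpn1, whose phosphatase removes phosphate from the receptors, by 1.09 ± 0.07 (2.13-fold). Ptpn12 rose by 0.50 and Errfi1 by 0.48. At 12 h 4 rose and 1 fell (median -0.02, all genes 0.01), beside 13.3% of all genes in each direction, with Errfi1 at -0.62 and the ubiquitin ligase gene Cblb at 0.35. At 24 h 3 rose and 2 fell (median 0.03, all genes 0.05), beside 15.3% higher and 14.7% lower over all genes, with Errfi1 at -0.32 and Grk2 at 0.25.

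Of 27 measured genes for receptor-proximal signalling, 11 rose and 4 fell at 6 h (median 0.11, all genes 0.01), where 18.6% of all genes were higher and 17.2% lower. Gab1, a docking protein gene, fell by 1.16, whereas Rasa1, whose product switches Ras off, rose by 0.90, the MAP kinase kinase gene Map2k1 by 0.76 and Stat3 by 0.66. At 12 h 7 rose and 4 fell (median 0.03, all genes 0.01; 13.3% of all genes in each direction), with Map2k1 at 0.98, Stat3 at 0.55 and Plcg1 at -0.41. At 24 h 4 rose and 6 fell (median -0.01, all genes 0.05), near the 30.0% of all genes that passed, with Stat3 at 0.56 and Map2k1 at 0.36. Of the other class III receptor genes Kit, Csf1r and Flt3, none passed at any time, with log2 changes of -0.03 to 0.15 (limma, adjusted p from 0.157 to 0.958). Group means were low, at 5.46 to 5.64 for Kit, 6.43 to 6.50 for Csf1r and 7.09 to 7.23 for Flt3. The median gene level was 8.0, and a lack of change at such low levels does not show stable expression. In the list of these receptors and their ligands 2 of 6 rose and 0 fell at 6 h and at 12 h, while 0 rose and 2 fell at 24 h (medians 0.03, 0.03 and 0.10, beside 0.01, 0.01 and 0.05 over all genes). These shares are near the 35.8%, 26.6% and 30.0% of all genes that passed. Kitlg, a ligand gene, was at 0.59, 0.58 and -0.36.

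The VEGF-type ligand genes are relatives of the PDGFs in sequence. Of 5, 1 rose and 3 fell at 6 h, 0 rose and 3 fell at 12 h, and 1 rose and 4 fell at 24 h (medians -0.17, -0.30 and -0.66, beside 0.01, 0.01 and 0.05 over all genes, of which 35.8%, 26.6% and 30.0% passed). Vegfc had -0.93, -0.48 and -0.69, and Pgf rose by 0.64 at 6 h and was at -0.66 at 24 h.

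Of 12 transcription factor genes whose products are known to act on PDGF or PDGF receptor genes, 4 rose and 4 fell at 6 h (median -0.02, all genes 0.01), where 35.8% of all genes passed. At 12 h 2 rose and 5 fell (median -0.08, all genes 0.01; 26.6% passed), and at 24 h 1 rose and 8 fell (median -0.36, all genes 0.05; 30.0% passed). Egr1, whose product binds GC-rich PDGF promoters, read 13.57, 13.51 and 13.56 in control and 12.19, 12.25 and 12.34 at 6 h, when Pdgfa and Pdgfb were highest. Its change was -1.29 ± 0.07 at 6 h (limma adjusted p = 2.5e-08), -3.53 ± 0.07 at 12 h (adjusted p = 2.11e-11) and -2.96 ± 0.07 at 24 h (adjusted p = 2.28e-10). Whether Egr1 had a part in the changes of Pdgfa and Pdgfb was not tested, and the groups hold no exposure shorter than 6 h. Klf4 was lower at all 3 times (-1.18, -1.54 and -2.53), and so was Jun (-1.23, -1.53 and -1.54). Fosl1, an AP-1 gene, rose by 2.35 ± 0.06 at 6 h, was at 0.05 at 12 h and at -0.46 at 24 h.

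**Figure D5:**
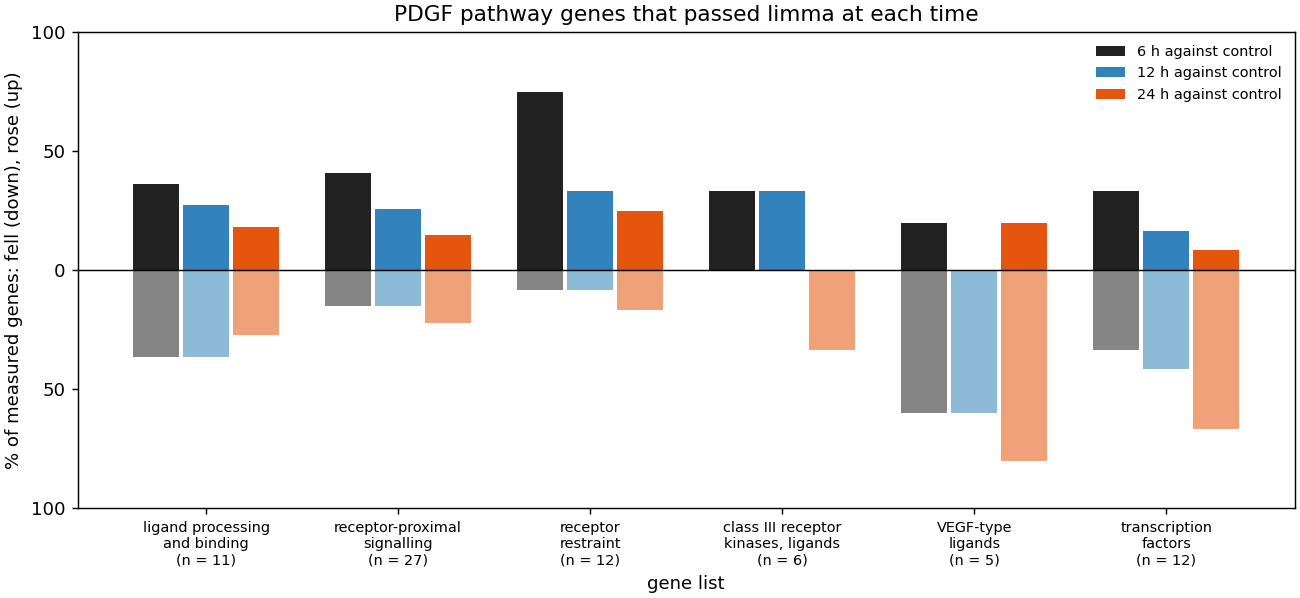
Share of the measured genes of each list that passed limma at an adjusted p under 0.05, with genes that rose above 0 and genes that fell below 0 (paler), for 3 times against control. The receptor restraint list stood highest at 6 h (9 of 12), and the transcription factor list reached its largest share of falls at 24 h (8 of 12).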

How the data were processed

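Total RNA from 12 samples, 3 per group, was measured on Affymetrix whole-transcript rat gene arrays. The deposited values are log2 values per probe set and array, for which the submitters' processing notes name RMA and Partek as the authors' tools. Not given in the sources used here: versions, filters and genome build. The log2 scale and the centring were read from the values themselves. Array medians were 7.22 to 7.32.

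Probe sets with exactly 1 symbol in the platform annotation were kept, 15310 of 29214 rows, and symbols were checked through gene identifiers in a RefSeq table (GRCr8). The probe set with the highest mean represented each of 14506 genes. Each PDGF gene had 1 probe set. All 12 arrays entered 1 model of 4 group means in limma 3.58.1 (R 4.3.3, eBayes, 8 residual and 3.37 prior degrees of freedom). P-values were two-sided, and Benjamini-Hochberg adjustment ran over all genes within a comparison, with a threshold of 0.05. Differences between 2 genes within an array were compared by exact permutation tests, adjusted over 9 tests. The model was tested on simulated data with 14506 genes, of which 50 were changed at each fold. At 24 h it recovered 60% of genes changed by 1.25-fold, 94% at 1.5-fold and 100% at 2-fold and at 4-fold, and called 9 unchanged genes. In the data 30.0% of genes passed at 24 h, a far larger share, so these rates need not carry over.

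The named genes are the 6 PDGF genes, the 3 genes most like each PDGF gene, and Agtr1a. Further names were taken, for each list and time, from the 4 genes that passed and changed most, not all of which are named. St14, Kit, Csf1r and Flt3 were added after their values were seen. Col1a1, Col1a2 and Thy1 were named for their high levels in the sum of fibroblast markers. Members, lists and rules were chosen with earlier results of these data known. Promoter windows and motif matches came from a RefSeq promoter table (GRCr8), read with Python 3.11.15 and pandas 2.3.3. The alternatives were other samples in the fit, a replicate block, single arrays left out, a level filter, other probe set rules, 2 further normalizations, another prior variance and array weights. No array was left out of the reported values.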

Additional observations from a re-analysis of the deposited data

Results flagged for a closer look

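For each PDGF gene the changes at 2 times were measured against the same control. The test of their difference (limma, adjusted p under 0.05) picked out 13 differences between times. By step, 5 of 6 members passed from 6 h to 12 h, 2 of 6 from 12 h to 24 h and 6 of 6 from 6 h to 24 h. Of all genes 27.0%, 27.5% and 39.2% passed in these steps. For Pdgfa the later level was lower by 0.36 at 12 h and 0.39 at 24 h than at 6 h (log2 differences of -0.36 and -0.39, adjusted p = 0.000101 and 2.5e-05). For Pdgfb the same differences were -0.96 and -0.86 (adjusted p = 1.79e-06 and 1.47e-06). Pdgfc was higher by 0.32 at 12 h than at 6 h, by 0.41 at 24 h than at 12 h and by 0.73 at 24 h than at 6 h (adjusted p = 0.00572, 0.00135 and 7.62e-06). Pdgfd differed by -0.78, 1.49 and 0.70 over these steps (adjusted p = 1.59e-05, 1.52e-07 and 1.54e-05), the only member whose steps had opposite signs and all passed. Pdgfra was higher by 0.24 at 24 h than at 6 h (adjusted p = 0.0095). Pdgfrb was lower at 12 h and 24 h than at 6 h, at -0.14 and -0.17 (adjusted p = 0.0166 and 0.00351). No test for an outlying array was run within the groups of 3, while single arrays left out and array weights were among the alternatives.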

How the results depend on the processing

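Over 36 values of PDGF genes (6 genes in 6 comparisons), 736 of 750 alternative values kept the direction and the side of the threshold. These values come from a smaller number of fits that share most arrays, and they are not independent. All 126 alternative counts of genes called stayed within 1.5 times the reported count. Leaving out single arrays gave -0.30 to -0.18 for Pdgfc at 24 h against control, with 5 calls lost, and -0.15 to -0.12 for Pdgfrb at 12 h against 6 h, with 2 lost. The Pdgfc value was -0.23 with a replicate block (adjusted p = 0.0546) and with all rows tested (adjusted p = 0.0525). Same-numbered arrays were not taken as paired, since 3 of 18 such pairs deviated together with r over 0.1 (5 of 36 pairs with other numbers), and the block changed no other call. Pdgfrb at 12 h against 6 h was -0.14 with only these groups (adjusted p = 0.0636). Pdgfra at 12 h against 6 h passed among genes above the median level (0.15, adjusted p = 0.0424), where Pdgfb could not be fitted because it lies below that level. Pdgfrb at 6 h passed after quantile normalization (-0.11, adjusted p = 0.0202). Median centring turned Pdgfa and Pdgfrb at 24 h against 12 h to 0.01 each, neither passing (adjusted p = 0.891 and 0.843). Of 135 alternative values of differences within an array 132 kept their sign, and Pdgfa minus Pdgfb at 6 h ran from -0.10 to 0.03 without single arrays. The cause of these changes was not tested.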

Other observations

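Markers of pericytes, the mural cells that depend on PDGF-B and the beta receptor, moved in both directions, and Pdgfrb was not counted among them. Cspg4, the gene of the NG2 proteoglycan, was 2.03-fold, 1.94-fold and 1.98-fold above control at 6 h, 12 h and 24 h (limma, adjusted p = 3.67e-09, 1.21e-08 and 1.21e-08). Mcam rose by 0.94, 0.68 and 1.14 on the log2 scale. Anpep was lower at all 3 times (-0.35, -0.58 and -0.48), and Notch3 at 6 h and 12 h (-0.56 and -0.36). Of the 9 measured markers 2 rose and 3 fell at 6 h and at 12 h, and 2 rose and 1 fell at 24 h, beside 35.8%, 26.6% and 30.0% of all genes that passed at these times. Of the 11 smooth muscle markers 4 rose and 4 fell at 6 h, whereas 10 rose and 0 fell at 24 h, with Smtn at 0.66 and Lmod1 at 0.59. Pdgfrb was at -0.22 at that time.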
